A study of Homo sapiens with 24 samples.

Results

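The 9 genes described here encode enzymes that make, recycle or break down the deoxynucleotides from which DNA is built: RRM1, RRM2, RRM2B, TYMS, TK1, DUT, DCK, DCTPP1 and SAMHD1. They were taken by gene symbol from a read-count table of 14493 genes, and the table held 9 of 9. In SKBr3 cells given any of 6 drugs for 7 days, RRM2 and TYMS fell in every drug group, and most steeply with ND-646, where RRM2 mRNA was 14.6-fold and TYMS mRNA 11.8-fold lower than in untreated day-0 cells. RRM2B stayed within a narrow range, TK1 did not pass the test in palbociclib or alisertib cells, and SAMHD1 rose in bleomycin cells while it fell with ND-646, TVB-3166 and palbociclib.

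The study compared states of therapy-induced senescence (TIS), in particular TIS brought on by inhibitors of fatty acid synthesis (FASTIS). SKBr3 is an established human breast cancer cell line with amplified ERBB2. RNA-seq was made from 24 libraries of this single line, in 8 groups of 3, and the labels do not say that replicates were separate cultures, so p-values measure the spread between these samples. The drug groups were ND-646 at 250 nmol/L, which inhibits acetyl-CoA carboxylase, TVB-3166 at 250 nmol/L, which inhibits fatty acid synthase, bleomycin at 10 umol/L, which breaks DNA, doxorubicin at 10 nmol/L, which poisons topoisomerase II, palbociclib (spelled Palboclib in the labels) at 1 umol/L, which inhibits CDK4 and CDK6, and alisertib at 500 nmol/L, which inhibits Aurora A kinase. All drug-treated cells were refed with drug on day 3 and collected on day 7. Untreated cells formed 2 groups, collected on day 0 and on day 7. The labels give no refeeding for untreated day-7 cells, so drug and refeeding cannot be told apart in comparisons with them.

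Ribonucleotide reductase makes deoxynucleotides from ribonucleotides and is built from the large subunit RRM1 and a small subunit, which is RRM2 in dividing cells or RRM2B outside S phase. TYMS methylates dUMP to dTMP, TK1 and DCK salvage thymidine and deoxycytidine, DUT removes dUTP, DCTPP1 removes dCTP and its modified forms, and SAMHD1 breaks deoxynucleoside triphosphates down. Several of these genes are known as targets of E2F transcription factors and are transcribed mainly around S phase.

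The libraries held 29405121 to 44316330 counts each, and the smallest count of any of the 9 genes was 52 (SAMHD1 in a single ND-646 library), so spread between libraries rather than counting error limited most values. The SKBr3 marker ERBB2 stood between 5125 and 8828 CPM (counts scaled to a common library size) in all libraries, and of 8 markers of immune, stromal and endothelial cells 6 (PTPRC, CD3E, CD14, COL1A2, PDGFRB and PECAM1) are not listed in the table. The other 2 were detected: COL1A1, a fibroblast collagen, ranged from 6.46 to 15.2 CPM, and CDH5, the endothelial cadherin, from 2.43 to 6.87 CPM in untreated libraries and from 26.5 to 47.0 CPM in bleomycin, doxorubicin and palbociclib libraries. CDH5 was 9.55 to 14.1 CPM with ND-646, 6.69 to 9.69 CPM with TVB-3166 and 5.56 to 7.67 CPM with alisertib. The part of CDH5-expressing cells in the results of the drug groups was not tested. ND-646 replicate 1 stood apart: its log2 CPM correlated with the other ND-646 libraries at 0.968 and 0.971, against 0.982 to 0.994 for all other replicate pairs. Bleomycin replicate 2 held the lowest RRM2 and TYMS values of its group. The changes without either library stand with the counts over the 9 genes.

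Promoter sequences are printed for RRM1, RRM2, TYMS, DCK and SAMHD1. SAMHD1 rose with bleomycin but fell with ND-646, TVB-3166 and palbociclib, so it does not stand for a gene that stayed unchanged. A link between motifs and falls was not tested. RefSeq windows on GRCh38.p14, from 250 bases before to 50 bases after a start, were given for 8 of the 9 genes, and RRM2B had no entry. Each was searched on both strands for the E2F-type motif TTCCCGC, for its variants TTGGCGC and also TTCGCGC and TTGCCGC as well, for CCAAT and for the CHR motif TTTGAA. At least 1 E2F-type match lay in a window of 6 of the 8 genes (RRM1, RRM2, TYMS, TK1, DUT and DCK) and in none of DCTPP1 and SAMHD1, beside 15.27% of 27305 genes and 12.97% of 35116 windows. The share of genes covers all genes with a window, not only those of the count table. RRM2, TK1 and DUT had several windows each, and so more chances of a match, and matched in only 1. Within the 150 bases before the start alone, 4 of the 8 held such a match (TYMS, TK1, DUT and DCK), those of RRM1 and RRM2 lying farther upstream. Of all windows 7.353% held such a match there. This share is per window and some genes have several windows, so it cannot be set directly against a count of genes. The 250 bases before the start are printed 5′ to 3′ on the gene's own strand, with capitals marking every match. The RRM2 window shown belongs to the upstream of its 2 listed starts, and the other had no E2F-type match but 3 CCAAT matches, at -123, -93 and -66 from its start.
RRM1, chr11:4094435-4094684, plus strand: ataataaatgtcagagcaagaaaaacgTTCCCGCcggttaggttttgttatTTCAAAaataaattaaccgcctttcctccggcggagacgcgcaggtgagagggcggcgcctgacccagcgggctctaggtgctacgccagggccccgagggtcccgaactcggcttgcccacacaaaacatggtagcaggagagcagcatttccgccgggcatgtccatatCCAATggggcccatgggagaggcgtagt
RRM2, chr2:10122318-10122567, plus strand: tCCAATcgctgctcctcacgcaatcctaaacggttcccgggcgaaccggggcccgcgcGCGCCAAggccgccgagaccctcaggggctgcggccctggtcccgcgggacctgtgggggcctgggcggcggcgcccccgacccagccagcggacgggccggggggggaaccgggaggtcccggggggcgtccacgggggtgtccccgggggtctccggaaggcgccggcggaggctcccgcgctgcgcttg
TYMS, chr18:657403-657652, plus strand: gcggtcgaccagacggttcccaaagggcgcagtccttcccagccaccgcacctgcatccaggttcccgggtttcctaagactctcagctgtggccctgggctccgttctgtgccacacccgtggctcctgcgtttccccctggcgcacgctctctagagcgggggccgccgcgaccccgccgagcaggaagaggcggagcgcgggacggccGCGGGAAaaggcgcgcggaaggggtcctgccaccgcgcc
DCK, chr4:70993399-70993648, plus strand: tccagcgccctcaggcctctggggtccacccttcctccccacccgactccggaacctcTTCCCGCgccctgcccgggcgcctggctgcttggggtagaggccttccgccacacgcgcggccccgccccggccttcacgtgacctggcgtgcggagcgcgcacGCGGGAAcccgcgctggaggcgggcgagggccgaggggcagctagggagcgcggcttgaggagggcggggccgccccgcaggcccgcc
SAMHD1, chr20:36951709-36951958, minus strand: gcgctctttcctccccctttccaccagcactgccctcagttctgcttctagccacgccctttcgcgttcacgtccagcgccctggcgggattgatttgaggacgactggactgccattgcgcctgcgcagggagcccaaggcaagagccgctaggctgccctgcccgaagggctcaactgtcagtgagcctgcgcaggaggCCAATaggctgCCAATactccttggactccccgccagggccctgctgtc

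Among these, TYMS carried an E2F-type match 39 bases before its start and DCK carried 2 in the printed stretch (at -192 and -88) and another at 22 after the start. RRM1 held an E2F-type match at -223, a CHR match at -199 and a CCAAT at -28, whereas SAMHD1 held only CCAAT matches, at -49 and -38. CCAAT was found in 4 of the 8 genes and in 39.72% of all genes. CHR was found in 2 of the 8 (RRM1 and DUT), or 1 within 150 bases, and in 18.17% of all genes. In only 1 of their several windows, TK1 held an E2F-type match at -12 and DUT held a pair, at -42 and -26. A match describes letters in a window and does not show a bound factor.

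On GRCh37, RRM1 (NCBI Gene 6240) lies at chr11:4115937-4160162, RRM2 (6241) at chr2:10260825-10351851, RRM2B (50484) on chromosome 8, TYMS (7298) at chr18:657653-673578, TK1 (7083) at chr17:76170172-76183314, DUT (1854) at chr15:48623208-48635570, DCK (1633) at chr4:71858255-71896631, DCTPP1 (79077) at chr16:30434936-30441351 and SAMHD1 (25939) at chr20:35518632-35580296. Levels per length divide CPM by the length of the canonical transcript in kilobases (kb). By this level per length, TK1 was the most abundant of the 9 in untreated day-0 cells at 271 ± 30.3 CPM per kb (SD, n = 3). RRM2 followed at 142 ± 3.87, DCTPP1 at 99.4 ± 10.9, RRM1 at 73.2 ± 1.89 and TYMS at 70.6 ± 7.49 CPM per kb. The lowest levels per length were those of DUT at 24.6 ± 0.91, DCK at 19.1 ± 2.39, RRM2B at 6.04 ± 0.40 and SAMHD1 at 3.96 ± 0.31 CPM per kb. RRM2 and TYMS varied most across the 8 groups, with 14.4-fold and 11.6-fold between the highest and lowest group mean CPM, and RRM2B varied least, with 1.19-fold.

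**Figure D1:**
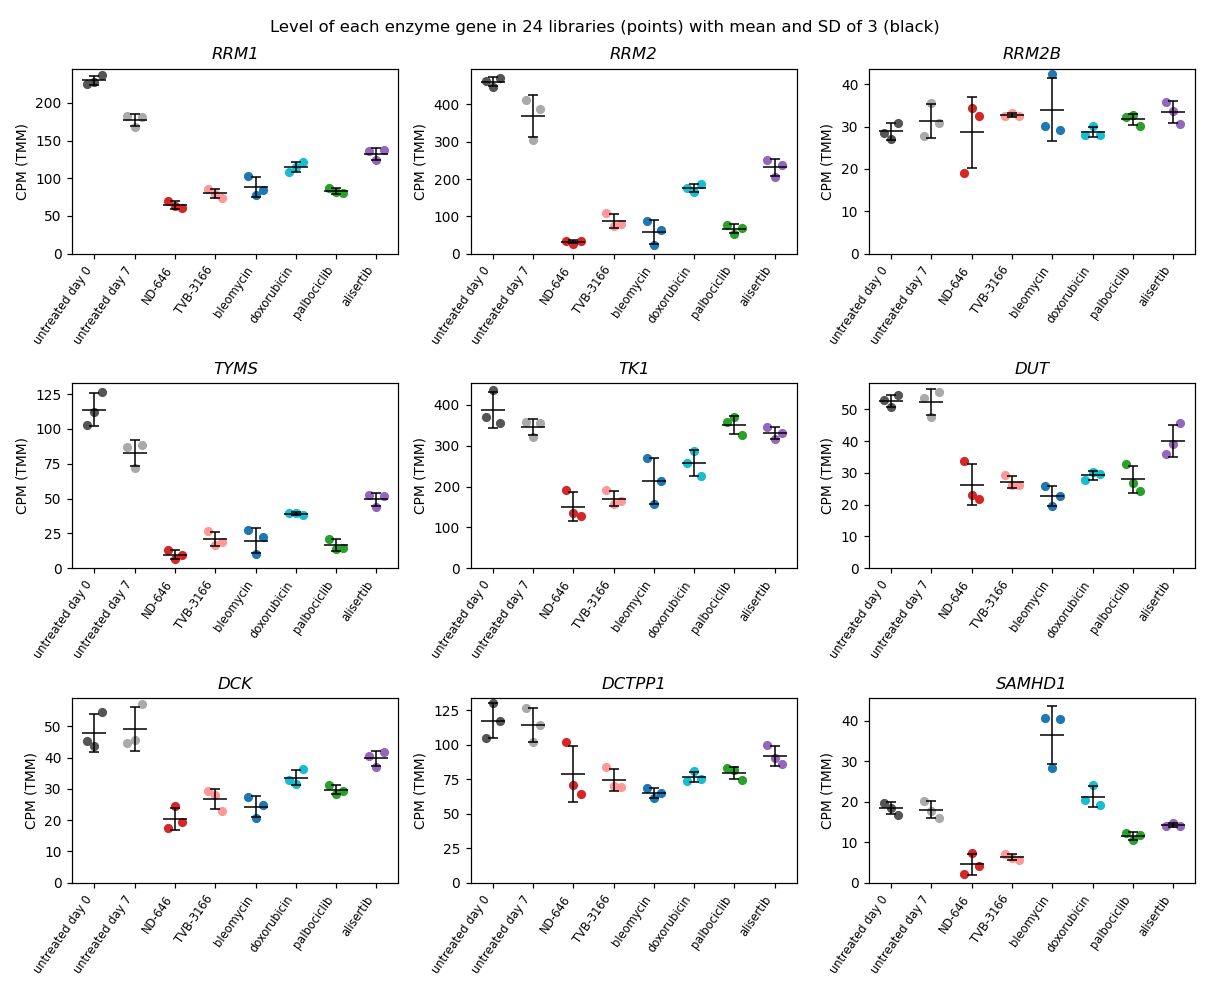
CPM (TMM-scaled counts) of each of the 9 genes on a linear axis from 0, by group, with 1 point per library and the mean ± SD of 3 libraries in black. RRM2 and TYMS were lowest with ND-646, TK1 in palbociclib cells (326 to 369.9 CPM) lay among the untreated libraries, RRM2B was flat apart from single libraries, and SAMHD1 was highest with bleomycin (28.3 to 40.8 CPM).

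RRM2, the small subunit that rises in S phase, was measured at 464, 448 and 472 CPM in untreated day-0 cells and at 413, 305 and 389 CPM in untreated day-7 cells. With the lipogenesis inhibitors it was 34.4, 26.7 and 34.7 CPM (ND-646) and 109.6, 73.1 and 78.7 CPM (TVB-3166). No drug-treated library reached the lowest untreated one. In bleomycin cells RRM2 was 88.3, 24.3 and 64.3 CPM, and in palbociclib cells 77.8, 53.1 and 69.4 CPM. Doxorubicin left 177, 166 and 186 CPM and alisertib 250.3, 205 and 239 CPM. These last 2 drugs thus gave the mildest falls.

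Relative to untreated day-0 cells, the log2 fold-change of RRM2 was -3.87 with ND-646 (SE 0.17, adjusted p = 6.69e-06, edgeR quasi-likelihood test), and it was -2.97 with bleomycin (SE 0.37), or -2.60 without bleomycin replicate 2. It was -2.79 with palbociclib, -2.40 with TVB-3166, -1.38 with doxorubicin and -0.997 with alisertib, and each of the 6 passed the test. In the order of group means from a fit of all 24 libraries, RRM2 in doxorubicin cells exceeded that in TVB-3166 cells (adjusted p = 0.00578) and RRM2 in bleomycin cells exceeded that in ND-646 cells (adjusted p = 0.0171). Between these steps the TVB-3166, palbociclib and bleomycin groups, neighbours in the order of RRM2 levels, did not differ beyond their spread. The bleomycin and ND-646 groups overlapped, since bleomycin replicate 2 (24.3 CPM) lay below every ND-646 library (26.7 to 34.7 CPM). That contrast was not refitted without single libraries. Reads shared with 3 pseudogenes that bear the name RRM2 cannot be told apart here. Relative to untreated day-7 cells, which shared the 7 days of culture, RRM2 was lower by -3.54 (ND-646), -2.08 (TVB-3166), -2.64 (bleomycin), -1.04 (doxorubicin), -2.46 (palbociclib) and -0.66 (alisertib) on the log2 scale, and each passed the test. The alisertib call was lost in the fit of all 24 libraries (adjusted p = 0.126).

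RRM1, the large subunit, was 226, 228 and 237 CPM at day 0 and 182, 168 and 182 CPM in untreated day-7 cells. It was lowest with ND-646, at 69.9, 63.3 and 60.7 CPM, and TVB-3166 left 85.8, 79.6 and 74.4 CPM. All drug-treated libraries lay below all untreated ones. The values were 102, 77.5 and 84.4 CPM with bleomycin, 87.4, 81.4 and 79.8 CPM with palbociclib, and 109, 115 and 121 CPM with doxorubicin. Alisertib cells kept the most, 137, 124 and 137 CPM. The log2 fold-changes against day 0 were smaller than those of RRM2 for each drug, from -1.84 with ND-646 (SE 0.13, adjusted p = 2.92e-05) to -0.80 with alisertib (SE 0.08, adjusted p = 0.000153), although the difference between the genes was not tested. Against untreated day-7 cells RRM1 changed by -1.47 to -0.41 (log2) and passed the test in 6 of 6 drug groups.

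RRM2B, the alternative small subunit, was 28.5, 27.1 and 30.9 CPM in untreated day-0 cells and 27.7, 35.5 and 30.8 CPM in untreated day-7 cells. With ND-646 it was 19.0, 34.4 and 32.5 CPM, the first of these in the library that stood apart. The other drug-treated libraries ranged from 28.0 CPM (doxorubicin) to 42.5 CPM (bleomycin replicate 2), and the groups overlapped day-0 cells in all but TVB-3166 cells. None of the 12 drug comparisons passed the test, and the log2 fold-changes against day 0 lay between -0.02 and 0.24. In ND-646 cells the confidence interval of the change was wide (95% interval -0.53 to 0.50, log2), and the estimate moved from -0.02 to 0.21 without replicate 1. For TVB-3166 the interval was -0.03 to 0.41 and for doxorubicin it was -0.21 to 0.22.

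With RRM2 lower and RRM2B not called, the makeup of small-subunit mRNA shifted. RRM2B made up 4.09 ± 0.16% (SD, n = 3) of the summed RRM2 and RRM2B level per length in untreated day-0 cells and 5.62 ± 1.56% at day 7. It made up 27.4, 46.8 and 39.0% in the ND-646 libraries and 18.9, 54.4 and 23.7% in the bleomycin libraries. In bleomycin replicate 2 the level per length of RRM2B thus exceeded that of RRM2, which happened in no other library. Without that library the mean share with bleomycin was 21.3% in place of 32.3%, and without ND-646 replicate 1 the mean with ND-646 was 42.9% in place of 37.7%. The share was 20.8 ± 3.60% with TVB-3166, 24.8 ± 4.11% with palbociclib, 10.0 ± 0.86% with doxorubicin and 8.996 ± 0.999% with alisertib. The summed small-subunit level per length was 2.02 times that of RRM1 at day 0 and 0.77 times with ND-646. These shares were computed from the same RRM2 values as above and were not tested, and mRNA shares do not give protein shares.

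**Figure D2:**
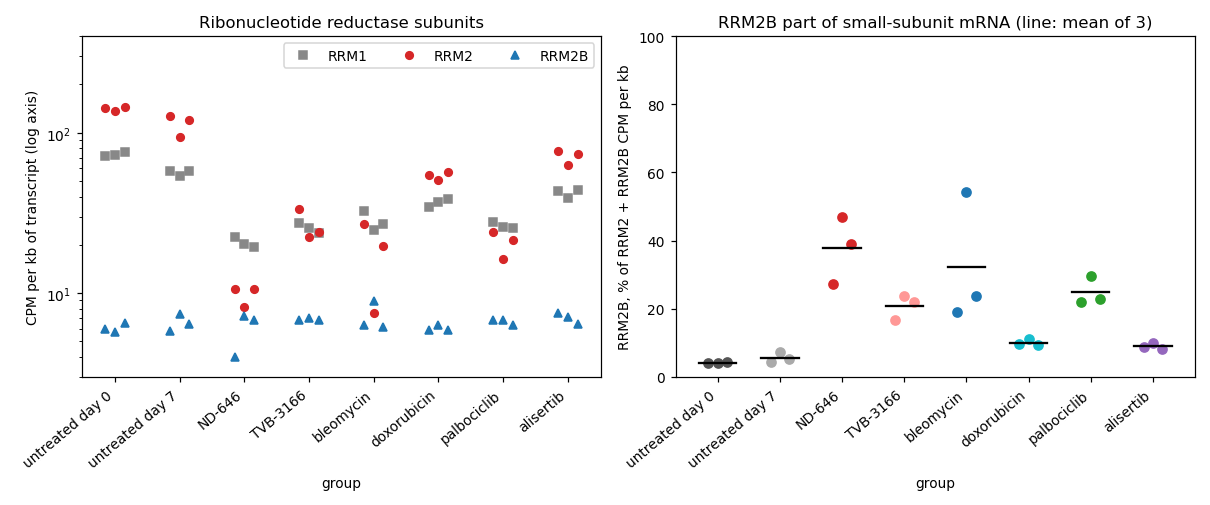
Left, CPM per kb of transcript (log axis) of RRM1, RRM2 and RRM2B in each library, 3 per group. Right, RRM2B as a percentage of summed RRM2 and RRM2B CPM per kb, with 1 point per library and a line at the mean of 3; the mean share was 4.09% at day 0, 37.7% with ND-646 and 32.3% with bleomycin (21.3% without bleomycin replicate 2).

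TYMS, thymidylate synthase, was 103, 112 and 127 CPM at day 0 and 87.2, 72.2 and 88.7 CPM in untreated day-7 cells. ND-646 cells held 13.4, 6.71 and 9.30 CPM and TVB-3166 cells 26.5, 16.8 and 19.1 CPM. Again no treated library reached an untreated one. Bleomycin left 27.2, 9.90 and 22.5 CPM, palbociclib 21.3, 13.5 and 14.4 CPM, doxorubicin 39.8, 39.5 and 38.1 CPM and alisertib 52.7, 43.7 and 51.7 CPM. The log2 fold-changes relative to day 0 were -3.56 (ND-646, SE 0.25, adjusted p = 2.62e-05), -2.45 (TVB-3166), -2.52 (bleomycin, or -2.20 without replicate 2), -2.79 (palbociclib), -1.53 (doxorubicin) and -1.21 (alisertib), all past the test, as were the 6 against day 7 (-3.09 to -0.73). The alisertib call against day 7 was lost in the fit of all 24 libraries (adjusted p = 0.0745). TYMS overlaps the oppositely transcribed ENOSF1 over 3261 bases and 2 pseudogenes bear its name, and whether strand was used in counting is not stated, so the part of its counts that comes from these is not known. ENOSF1 itself ranged from 12.6 to 39.8 CPM across libraries. It exceeded TYMS in the ND-646 libraries (21.2 to 25.1 CPM) and in the TVB-3166 libraries (27.5 to 31.0 CPM). With palbociclib its mean, 25.2 CPM, exceeded the TYMS mean of 16.4 CPM.

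TK1, the cytosolic thymidine kinase, departed from TYMS most clearly in palbociclib cells. It was 371, 437 and 356 CPM at day 0 and 358, 322 and 355 CPM in untreated day-7 cells, and palbociclib cells held 357, 369.9 and 326 CPM. The 3 groups overlapped, and the palbociclib change against day 0 was -0.15 (log2, interval -0.38 to 0.09, adjusted p = 0.268) and against day 7 it was 0.03 (interval -0.15 to 0.21, adjusted p = 0.785). Alisertib cells held 345, 318 and 331 CPM, a log2 change of -0.23 against day 0 (adjusted p = 0.092). The other drugs lowered TK1 to 192, 134 and 127 CPM (ND-646), 191, 157 and 164 CPM (TVB-3166), 270.1, 157 and 214 CPM (bleomycin) and 259, 288 and 225 CPM (doxorubicin). Their log2 fold-changes against day 0 were -1.38, -1.18, -0.86 and -0.58, and each passed the test.

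Directly compared in the fit of all 24 libraries, TK1 in palbociclib cells was higher than in ND-646 cells by 1.22 (log2, SE 0.16, adjusted p = 4.1e-06), than in TVB-3166 cells by 1.04 and than in bleomycin cells by 0.72 (adjusted p = 0.00178). The gap to doxorubicin cells, 0.45 (interval 0.12 to 0.78), missed the threshold (adjusted p = 0.0622). Across the 28 pairs of groups in that fit, 3.13% to 56.0% of 14078 genes passed the test. For palbociclib the share was 43.9% against ND-646, 30.2% against TVB-3166, 31.5% against bleomycin and 14.9% against doxorubicin. The ratio of TK1 to TYMS CPM was 2.81 to 3.91 in day-0 libraries, 16.8 to 27.4 in palbociclib libraries, 13.7 to 20.04 in ND-646 libraries, and 5.91 to 15.9 in the other drug-treated libraries. High ratios thus came with TK1 within its untreated range in palbociclib cells and with lowered TK1 in ND-646 cells.

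**Figure D3:**
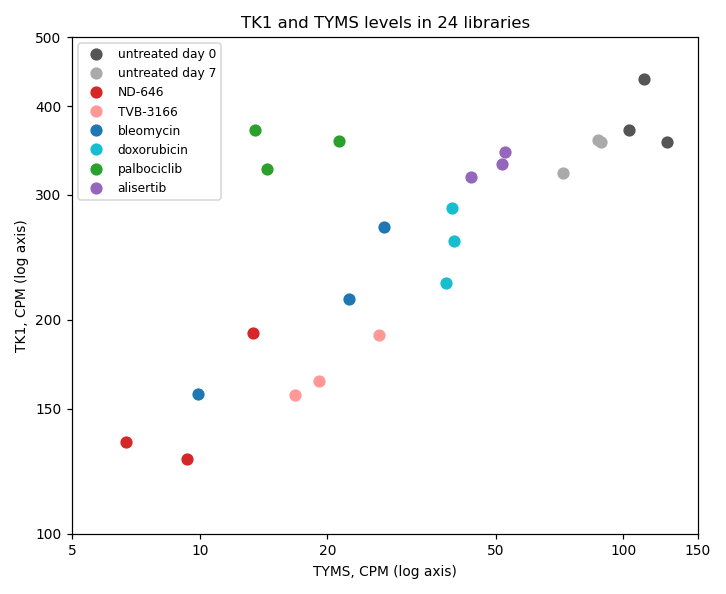
TK1 CPM against TYMS CPM in 24 libraries on log axes, 1 point per library, coloured by group. Palbociclib libraries have 326 to 369.9 CPM of TK1, as the untreated cells do, at 13.5 to 21.3 CPM of TYMS. TVB-3166 replicates 2 and 3, which lie in that TYMS range too (16.8 and 19.1 CPM), have 157 and 164 CPM of TK1.

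DUT, the dUTPase, was 50.7 to 54.5 CPM at day 0 and 47.7 to 55.6 CPM at day 7. It was 33.7, 23.1 and 21.9 CPM with ND-646 and 25.8, 19.6 and 22.7 CPM with bleomycin. All drug-treated libraries lay below the untreated ones, with alisertib cells nearest at 35.8, 39.0 and 45.7 CPM. Its log2 fold-change against day 0 was largest with bleomycin (-1.21, SE 0.12, adjusted p = 9.36e-05), between -1.02 and -0.84 with ND-646, TVB-3166, doxorubicin and palbociclib, and -0.39 with alisertib (adjusted p = 0.0154), which was lost without either alisertib replicate 1 or 2 (adjusted p = 0.0608 and 0.0603). DUT passed the test in 12 of 12 drug comparisons, but the alisertib call against day 7 was lost in 4 of 6 fits without a library and in the fit of all 24 libraries (adjusted p = 0.103). In addition, 8 pseudogenes bear its name and reads shared with them cannot be told apart here.

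DCK, the deoxycytidine kinase that also activates nucleoside drugs, was 45.1, 43.6 and 54.7 CPM at day 0 and 17.3, 24.4 and 19.5 CPM with ND-646. It fell by 1.24 on the log2 scale with ND-646, by 0.97 with bleomycin, by 0.83 with TVB-3166, by 0.69 with palbociclib and by 0.50 with doxorubicin, each past the test. In alisertib cells (40.4, 37 and 41.8 CPM) it did not pass, at -0.27 against day 0 (adjusted p = 0.0726) and -0.29 against day 7 (adjusted p = 0.0754, or 0.017 with the replicate number as a block). MOB1B overlaps DCK on the same strand over 29912 bases and ranged from 8.41 to 36.5 CPM.

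DCTPP1, the dCTP pyrophosphatase, changed by less than 1 on the log2 scale in every group. It was 105, 130.4 and 117 CPM at day 0 and 69.0, 61.4 and 65.2 CPM with bleomycin, where the change was largest (-0.84, SE 0.11, adjusted p = 0.000328). In ND-646 cells it was 102, 70.5 and 64.4 CPM, highest in the library that stood apart. That change (-0.59, adjusted p = 0.0382) was lost in 5 of 6 fits that left out a library, with adjusted p up to 0.14, and against day 7 it missed the threshold (-0.55, adjusted p = 0.0524). The change against day 7 did pass with DESeq2 (adjusted p = 0.0328), with a minimum of 10 counts (0.0482), with all 24 libraries in a fit (0.00192), with the replicate number as a block (0.0238) and without ND-646 replicate 1 (-0.77, 0.000159). Against day 0 it was -0.80 without that replicate. The remaining log2 fold-changes against day 0 ran from -0.65 (TVB-3166) to -0.35 (alisertib), and the alisertib call was lost in 3 of 6 fits without a library, as was that against day 7 in 4 of 6. ZNF771 overlaps the whole of DCTPP1 on the other strand and reached at most 5.53 CPM.

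SAMHD1, the dNTP hydrolase, had a pattern of its own. It was 19.8, 18.6 and 16.9 CPM at day 0, 20.3, 17.6 and 16.1 CPM in untreated day-7 cells, and 40.8, 28.3 and 40.4 CPM with bleomycin. The bleomycin libraries did not overlap either untreated group, with a log2 fold-change of 0.99 against day 0 (SE 0.16, adjusted p = 0.000812) and 1.03 against day 7 (adjusted p = 0.00107). It was 2.23, 7.43 and 4.18 CPM with ND-646, 7.16, 6.14 and 5.62 CPM with TVB-3166 and 12.4, 10.6 and 11.7 CPM with palbociclib. Here SAMHD1 fell, by -1.997 (adjusted p = 0.00328), -1.54 and -0.67 on the log2 scale against day 0. Doxorubicin libraries overlapped day-0 cells at 20.4, 24.1 and 19.1 CPM (0.22, interval -0.05 to 0.49, adjusted p = 0.166). The fall in alisertib cells (14.1, 14.8 and 13.9 CPM, -0.37, adjusted p = 0.024) was lost in 5 of 6 fits without a library and in the fit of all 24 libraries (adjusted p = 0.22). Bleomycin exceeded doxorubicin for SAMHD1 by 0.78 in the fit of all 24 libraries (log2, adjusted p = 0.0208).

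Ordered by group mean in the fit of all 24 libraries, RRM1 ran from day-0 cells down through day 7, alisertib, doxorubicin, bleomycin, palbociclib and TVB-3166 to ND-646. Neighbours differed between day 0 and day 7 (adjusted p = 0.0325), day 7 and alisertib (0.00816), doxorubicin and bleomycin (0.00833) and TVB-3166 and ND-646 (0.0456). For TYMS the order was day 0, day 7, alisertib, doxorubicin, TVB-3166, bleomycin, palbociclib and ND-646, and it stepped down between doxorubicin and TVB-3166 (0.00988) and between palbociclib and ND-646 (0.0303). Alisertib exceeded doxorubicin for DUT (0.0351) and palbociclib exceeded TVB-3166 for SAMHD1 (0.00759), while no neighbours differed beyond their spread for TK1, DCK, DCTPP1 or RRM2B.

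**Figure D4:**
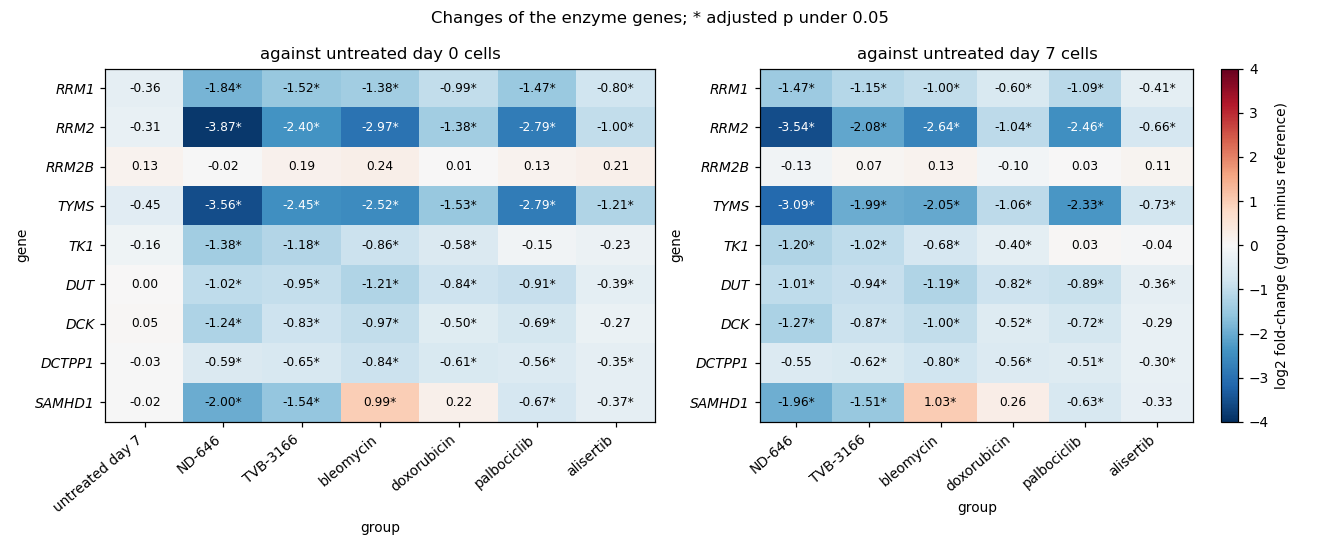
Log2 fold-changes of the 9 genes (rows) in each group (columns) relative to untreated day-0 cells (left) and untreated day-7 cells (right), blue for lower and red for higher. An asterisk marks an adjusted p under 0.05; RRM2 and TYMS carry one in all 12 drug columns and RRM2B in none.

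Counted over the 9 genes, 8 were lower than at day 0 with ND-646, where 18.8% of all 13604 genes tested were lower, and 8 with TVB-3166 (27.7% of genes lower). With bleomycin 7 were lower (25.3% of genes) and 1, SAMHD1, was higher (24.1%). With doxorubicin 7 were lower (24.8%), with palbociclib 7 (27.2%) and with alisertib 6 (19.6%). The median log2 fold-change of the 9 was -1.38, -1.18, -0.97, -0.61, -0.69 and -0.37 in this order of drugs, whereas the median of all genes tested lay between -0.01 and 0.02. These 6 comparisons share the day-0 libraries. The count was also 8 without ND-646 replicate 1, and with bleomycin it was also 7 lower and 1 higher without replicate 2. Without ND-646 replicate 1 the called log2 fold-changes ran from -3.92 (RRM2) to -0.80 (DCTPP1), with SAMHD1 at -1.67. Without bleomycin replicate 2 they were -1.30 (RRM1), -2.60 (RRM2), -2.20 (TYMS), -0.68 (TK1), -1.12 (DUT), -0.87 (DCK), -0.81 (DCTPP1) and 1.14 (SAMHD1).

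Relative to untreated day-7 cells the counts were 7 lower with ND-646 (17.1% of genes), 8 with TVB-3166 (26.1%), 7 lower (23.2%) and 1 higher (22.4%) with bleomycin, 7 with doxorubicin (21.5%), 7 with palbociclib (22.9%) and 5 with alisertib (9.49%). With alisertib the replicate numbers were taken to pair the libraries, from their correlations and not from the labels. With these numbers as a block 7 were lower, DCK and SAMHD1 being added. The share of all genes called with the block is not given here. In the fit of all 24 libraries only 1 of the 9 remained lower in that comparison, RRM1, beside 8.1% of 14078 genes passing in either direction. Untreated day-7 cells themselves differed little from day-0 cells: 0 of the 9 passed edgeR's adjusted threshold as lower, beside 0.198% of genes, while 3 (RRM1, RRM2 and TYMS) had an unadjusted p under 0.05 and did not overlap, as did 10.3% of all genes tested (lower, by the same rule). DESeq2 called 2 of them, RRM1 and TYMS, at log2 changes of -0.37 and -0.46. The share of all genes that DESeq2 called is not given here.

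TVB-3166 and ND-646 cells were compared directly, since both drugs act on fatty acid synthesis. RRM2 was higher with TVB-3166 than with ND-646 by 1.46 (log2, SE 0.19, adjusted p = 0.0404), the 1 gene of the 9 called, beside 0.520% of all genes called higher. This call was lost in 5 of 6 fits without a library. From their correlations the replicate numbers were taken to pair these libraries, which the labels do not state. With the number as a block TYMS was called too, at 1.12 (adjusted p = 0.0223). As reported without the block, TYMS was 1.10 higher (adjusted p = 0.118). For the other 7 genes the differences lay between -0.07 and 0.45 on the log2 scale and did not pass the test. Without ND-646 replicate 1, 4 of the 9 were called higher: RRM1, RRM2, TYMS and TK1. The shares of all genes called with the block and without that replicate are not given here, so these counts cannot be set against them.

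Over 24 libraries, log2 CPM of RRM2 and TYMS correlated at r = 0.98, RRM1 and TYMS at 0.97 and RRM1 and RRM2 at 0.95, given as descriptions because libraries of a group share their treatment. RRM2B and RRM2 correlated at -0.14 and SAMHD1 and DCTPP1 at 0.04. Within groups, over the deviations of the 24 libraries from their group means, these pairs correlated at -0.56 and -0.36, and RRM2 and TYMS at 0.90. By Pearson's r over 24 libraries, the genes outside the 9 with the most similar pattern were MYBL2 for RRM1 (0.980), CCNA2 for RRM2 (0.989) and NCAPG for TYMS (0.989). For TK1 it was WWOX (0.962), for DUT FH (0.961), for DCK RECQL (0.971), for DCTPP1 SNRPB (0.959), for SAMHD1 NES (0.926) and for RRM2B DCAF17 (0.826). Over the 8 group means in place of libraries another gene came first for 8 of the 9, namely NR4A3 for RRM1, CEP55 for RRM2, PCLAF for TYMS, ATOX1 for TK1, NELFA for DUT, CDC45 for DCK, ERF for DCTPP1 and DOCK1 for RRM2B, and only for SAMHD1 was it the same gene, NES.

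Replication and proliferation markers moved with the enzymes. Of 19 such genes, 19 fell with ND-646, TVB-3166, bleomycin and palbociclib, 18 with doxorubicin and 15 with alisertib relative to day 0, with median log2 fold-changes of -2.31, -1.86, -1.85, -1.49, -0.81 and -0.43. Among them GINS2, a replisome subunit, changed by -3.12 with ND-646 and -2.56 with palbociclib, and MKI67, a marker of cycling cells, by -3.70 and -2.64. TK1 in palbociclib cells thus lay within its untreated range while these markers were low. In bulk libraries fewer cells in S phase and less RNA per cell cannot be told apart, and the part of either in the falls was not tested.

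Other genes of nucleotide metabolism changed less uniformly. In the salvage and pool upkeep list, 7, 9, 9, 10, 9 and 9 of 17 tested genes fell with ND-646, TVB-3166, bleomycin, doxorubicin, palbociclib and alisertib relative to day 0, and 2, 3, 2, 1, 5 and 3 rose. Of all genes tested, 19.1%, 27.4%, 24.1%, 23.7%, 26.0% and 17.7% rose in this order of drugs, and the shares that fell are those given with the counts over the 9 genes. DTYMK, which phosphorylates dTMP, changed by -1.82 with ND-646 and -1.51 with palbociclib, and NUDT1, which removes oxidized nucleotides, by -2.16 and -1.03. TYMP, which degrades thymidine, rose by 2.02 with ND-646 and by 0.55 with palbociclib.

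Of 12 de novo purine enzymes, 7, 9, 7, 7, 6 and 6 fell in the same order of drugs, and 1 rose with ND-646 and 1 with TVB-3166, with PFAS at -1.16 and PAICS at -0.86 in ND-646 cells. Of 5 de novo pyrimidine enzymes, 3, 4, 3, 1, 2 and 1 fell in that order, and 1 rose with alisertib. CTPS1, which makes CTP, was at -1.46 with ND-646, -1.13 with TVB-3166 and, not past the test, -0.22 with doxorubicin. CAD, which starts the pyrimidine pathway, passed only with TVB-3166 (-0.43). Counted in either direction over the 6 drug comparisons with day 0, DHODH and UMPS were called more often (5 each) than CTPS1 (3) or CAD (1). Of the purine enzymes IMPDH1, GMPS and PAICS were called in 6 each and PFAS in 5. The median log2 fold-change of each of these lists lay nearer to 0 than that of the replication markers in all 6 drug groups relative to day 0. Relative to day 7 the salvage and pool upkeep list was the exception with doxorubicin (-0.51, against -0.47 for the markers).

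**Figure D5:**
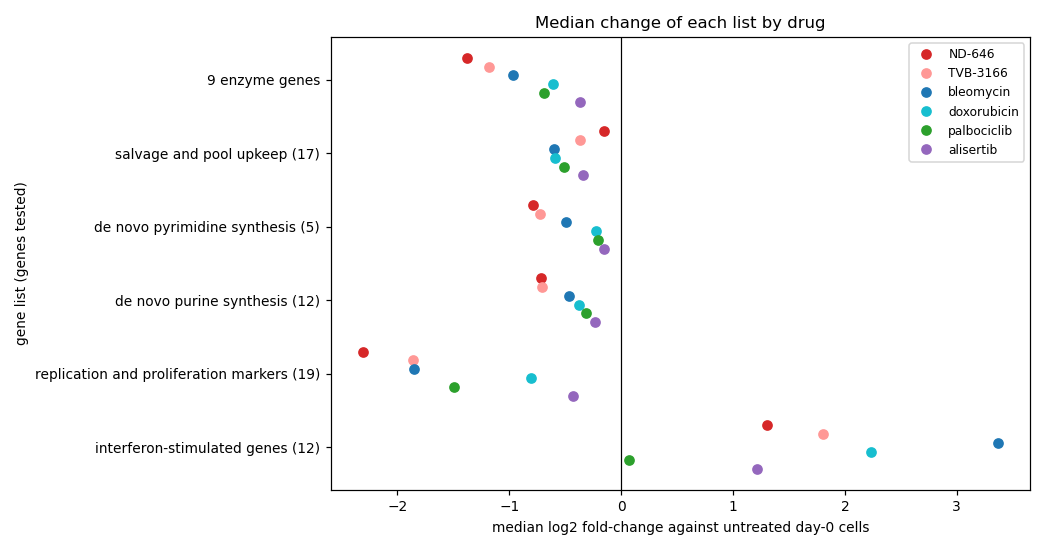
Median log2 fold-change relative to untreated day-0 cells of the 9 enzyme genes and of 5 gene lists (rows, genes tested in parentheses), with 1 point per drug. Replication markers run from -2.31 to -0.43 and interferon-stimulated genes from 0.07 to 3.37.

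Interferon-stimulated genes were listed because SAMHD1 is induced by interferon in some cells. Of 12 interferon-stimulated genes, 9, 11, 12, 11, 3 and 8 rose with ND-646, TVB-3166, bleomycin, doxorubicin, palbociclib and alisertib, 4 fell with palbociclib, and the median log2 fold-change was largest with bleomycin (3.37), where SAMHD1 rose, and second with doxorubicin (2.23), where SAMHD1 changed by 0.22. Of all genes tested with palbociclib 26.0% rose and 27.2% fell, so the palbociclib counts lay near the shares of all genes. The shares that rose with the other drugs stand with the salvage list. OAS2 rose by 5.90 with bleomycin and 3.44 with ND-646, where SAMHD1 fell. The part of interferon signalling in the level of SAMHD1 was not tested.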

How the data were processed

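RNA-seq of SKBr3 cells (24 libraries, 8 groups of 3) was taken from the raw gene-level counts that the authors deposited as a single table. Per the study's methods, reads were aligned to GRCh37 with HISAT2, transcripts were assembled with StringTie and groups were compared with DESeq2; the counting program's settings and its use of strand are not given in the sources used here. The labels name an mRNA kit and the methods a total RNA kit. The lowest count in the table is 1, so a gene that lacked reads in even 1 library is not listed. A gene that is not listed may thus have had reads in other libraries. Total counts limit precision little beside the spread of 3 replicates.

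Groups came from the labels. The quasi-likelihood test of edgeR 4.0.16 (under R 4.3.3) was applied two-sided to these counts after TMM scaling and filterByExpr, with both groups of a comparison in a fit and Benjamini-Hochberg adjustment over all genes tested; calls are at an adjusted p under 0.05. In all, 14 comparisons were made: 7 with untreated day-0 cells, 6 with untreated day-7 cells and TVB-3166 with ND-646. Orders of groups and drug-to-drug contrasts used a fit of all 24 libraries, adjusted within each contrast. SE is the absolute log2 fold-change over the square root of F. CPM used TMM factors over all libraries, and log2 CPM for correlations had a prior count of 2. Transcript lengths are those of GENCODE v44 lifted to GRCh37, and promoter windows come from RefSeq GRCh38.p14. The statistic script was tested on simulated data.

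Replicate numbers were taken to pair libraries where all 3 same-numbered correlations of deviations from group means exceeded 0.1: bleomycin with day 7 (0.107 to 0.142), alisertib with day 7 (0.105 to 0.218) and TVB-3166 with ND-646 (0.213 to 0.380). The labels state no pairing, and libraries of different numbers were not compared, so a true pairing is not known. The reported fits do not use it. The alternatives were RLE size factors, DESeq2 1.42.0, no filter, a minimum of 10 counts per library, all 24 libraries in a fit, the replicate block, a fold-change of at least 2 with raw p under 0.05 (also for the lists), leaving out each library, group means in place of libraries for the nearest genes, and only the 150 bases before the start for motifs. The RRM2B share without single libraries was added after seeing the data. All 9 genes are named; of each of the 5 context lists described up to 4 genes could be named, those called in the most drug comparisons with day 0, ties broken by mean absolute log2 fold-change, and for each of the 9 the nearest genes by Pearson's r. The 9 genes and the lists were chosen with earlier results of these data known. List genes not listed in the count table (CMPK2, CDA, IFIT1, IFIT2, IFIT3, IFI44, IFI44L and RSAD2) were not analysed here. Some genes, and lists that include or rest on them, are not reported here.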

Additional observations from a re-analysis of the deposited data

How the results depend on the processing

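RLE size factors, no filter and a minimum of 10 counts left all 28 counts of called genes within 1.5 times the reported ones. Without the replicate number as a block (the reported fit) 0 of the 9 genes were lower in untreated day-7 than day-0 cells, and 2 were with the replicate block, 2 with DESeq2 and 1 with all 24 libraries in a fit. TVB-3166 against ND-646 gave 1 gene higher as reported, 2 with the replicate block, 2 with DESeq2, 3 with all 24 libraries and 2 by the fold rule; leaving out a library gave 0 to 4. Alisertib against day 7 gave 1 lower with all 24 libraries. Of 14078 genes in that fit, 3.13% (day 7 against day 0), 9.01% (TVB-3166 against ND-646) and 8.1% (alisertib against day 7) passed in either direction. Shares of all genes in the other alternative fits are not given here. Called by a fold-change of at least 2 and raw p under 0.05, the genes lower against day 0 numbered 5 (TVB-3166), 4 (bleomycin, with 0 higher), 2 (doxorubicin), 3 (palbociclib) and 1 (alisertib), and against day 7 numbered 5, 3, 2, 3 and 0. That rule drops small changes by construction, and it moved 30 of 70 list counts by over 1.5 times: the purine enzymes then numbered 2, 1, 2, 0, 1 and 0 lower in the order of drugs used for the lists. Without single libraries, alisertib gave 3 to 6 lower against day 0 (3 without alisertib replicate 2) and 3 to 5 against day 7 (3 without alisertib replicate 2 or day-7 replicate 3), and doxorubicin 0 to 1 higher against day 7 (1 without day-7 replicate 1).

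Signs turned only for changes near 0 that did not pass the test. DUT at day 7 against day 0 (0.00) was -0.0080 with RLE, -0.0053 with the count minimum, -0.0099 with DESeq2, -0.010 with all 24 libraries, -0.00045 with the replicate block and -0.057 to 0.057 without single libraries; on leaving out a library DCK ran from -0.088 to 0.15, DCTPP1 from -0.12 to 0.057 and SAMHD1 from -0.13 to 0.043 there. RRM2B with doxorubicin against day 0 was -0.011 without a filter, -0.00036 with DESeq2, -0.0057 with all 24 libraries and -0.037 to 0.058 without single libraries. RRM2B ran from -0.18 to 0.21 with ND-646 against day 0 and, against day 7, from -0.30 to 0.084 with ND-646, -0.016 to 0.16 with TVB-3166, -0.065 to 0.23 with bleomycin and -0.052 to 0.12 with palbociclib, where TK1 ran from -0.019 to 0.077. Between TVB-3166 and ND-646, RRM2B ran from -0.024 to 0.36, DUT from -0.050 to 0.28 and DCTPP1 from -0.20 to 0.15. The cause of these moves was not tested. The replicate block changed no other call in the comparisons taken as paired than those named beside the results.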
